A study of Mus musculus with 8 samples.

Results

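The 46 genes described here encode proteins of homologous recombination, the Fanconi pathway, repair helicases and nucleases, DNA end joining and the damage checkpoint. They were taken by symbol from a given list, and all 46 were found among the 53647 gene identifiers counted and had enough reads to be tested. RNA was measured by poly(A)-selected, strand-marking sequencing in cultured primary mouse myotubes, which are fibres with many nuclei made by the fusion of myoblasts, the precursor cells of muscle. The cells were wild type and came from limb muscles of pups 2 to 3 days old, with the strain and sex not given in the sources used here. There were 4 groups of 2 libraries: myotubes with no added cytokine (control), and myotubes given interleukin 6 (IL6), leukaemia inhibitory factor (LIF) or oncostatin M (OSM) at 250 ng/ml for 48 h. All were kept in 5% horse serum to differentiate and were harvested at 72 h. These are whole cultures that may hold unfused cells, and no sorting step is stated. In such bulk samples, fewer cells of a type and less RNA per cell cannot be told apart. Nothing says whether the 2 libraries of a group come from separate animals or cultures, so p-values measure the spread between these libraries, which may be technical.

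Homologous recombination copies a break from the sister chromatid. Nucleases resect the broken ends, mediators built around BRCA1, PALB2 and BRCA2 prepare the single strand for pairing with its template, and helicases and nucleases take the joined molecules apart. The Fanconi pathway unhooks crosslinks between DNA strands by attaching ubiquitin to the FANCD2 and FANCI pair, while ATM, ATR and their kinases CHK2 and CHK1 halt the cycle until repair is done. A sister chromatid exists only after replication, and many genes of recombination are transcribed mainly in dividing cells. The nuclei of fused myotubes have left the cell cycle, and end joining, which needs no sister, works in such cells. The genes were divided by general knowledge into 24 linked to the cell cycle (cycling-linked) and 22 held to be expressed regardless of division (constitutive). This division was made with earlier results of these data known, so the contrast between the classes is a description and not an independent test. The placing of Palb2, Rad51c, Rad54b, Xrcc2, Rbbp8, Fancm, Chek2, Tipin and Parp1 can be argued.

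With OSM, 22 of the 24 cycling-linked genes fell against control and none rose, with a median log2 change of -1.54. Of the 22 constitutive genes, 5 fell, 1 rose and 16 were not called, with a median of -0.15. Over all 15603 genes tested, 10.5% were called lower and 10.7% higher with OSM, at an adjusted p under 0.05 in edgeR's quasi-likelihood test, and the median log2 change was -0.0027. With LIF, 12 cycling-linked genes fell and no member rose, where 3.52% of all genes tested were called lower and 4.18% higher. With IL6 no member was called, and 0% of all genes tested were. The falls reached a factor of 2 in 18 cycling-linked genes and a factor of 4 in 7 with OSM, and in no constitutive gene.

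Summed over the 24 cycling-linked genes, the level was 287 and 323 CPM (read counts scaled to library size) in the control libraries, 297 and 290.3 with IL6, 241 and 230.0 with LIF, and 123 and 136 with OSM. Both OSM libraries lay far under all 6 others, and both LIF libraries lay under the control and IL6 libraries. The 22 constitutive genes summed to 701 and 710.1 CPM in control, 725 and 709 with IL6, 720 and 732 with LIF, and 630.2 and 657 with OSM. For this class the OSM libraries were also the lowest, by a small margin, and the LIF libraries were not below control. A list of 30 proliferation genes that contains none of the 46 moved with the cycling-linked class: it summed to 1660 and 1926 CPM in control, 1607 and 1684 with IL6, 1340 and 1263 with LIF, and 600 and 676 with OSM. The part that a smaller number of dividing cells has in these results was not tested.

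**Figure D1:**
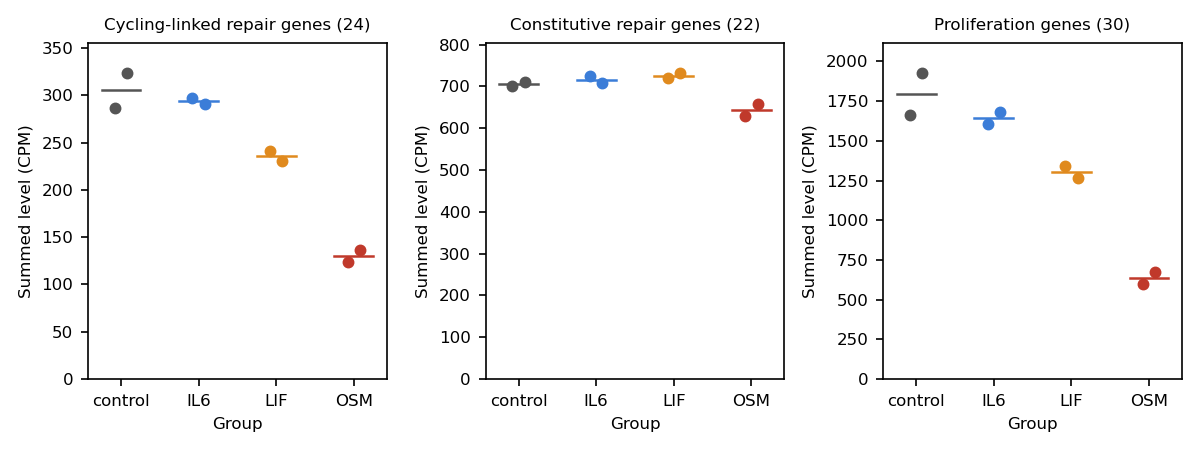
Summed level in CPM (read counts scaled to library size, y axis, starting at 0) of 24 cycling-linked repair genes, 22 constitutive repair genes and 30 proliferation genes in each group (x axis). Points are the 2 libraries of a group and lines their mean; the cycling-linked and proliferation sums are lowest with OSM (123 and 136 CPM, and 600 and 676 CPM).

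**Figure D2:**
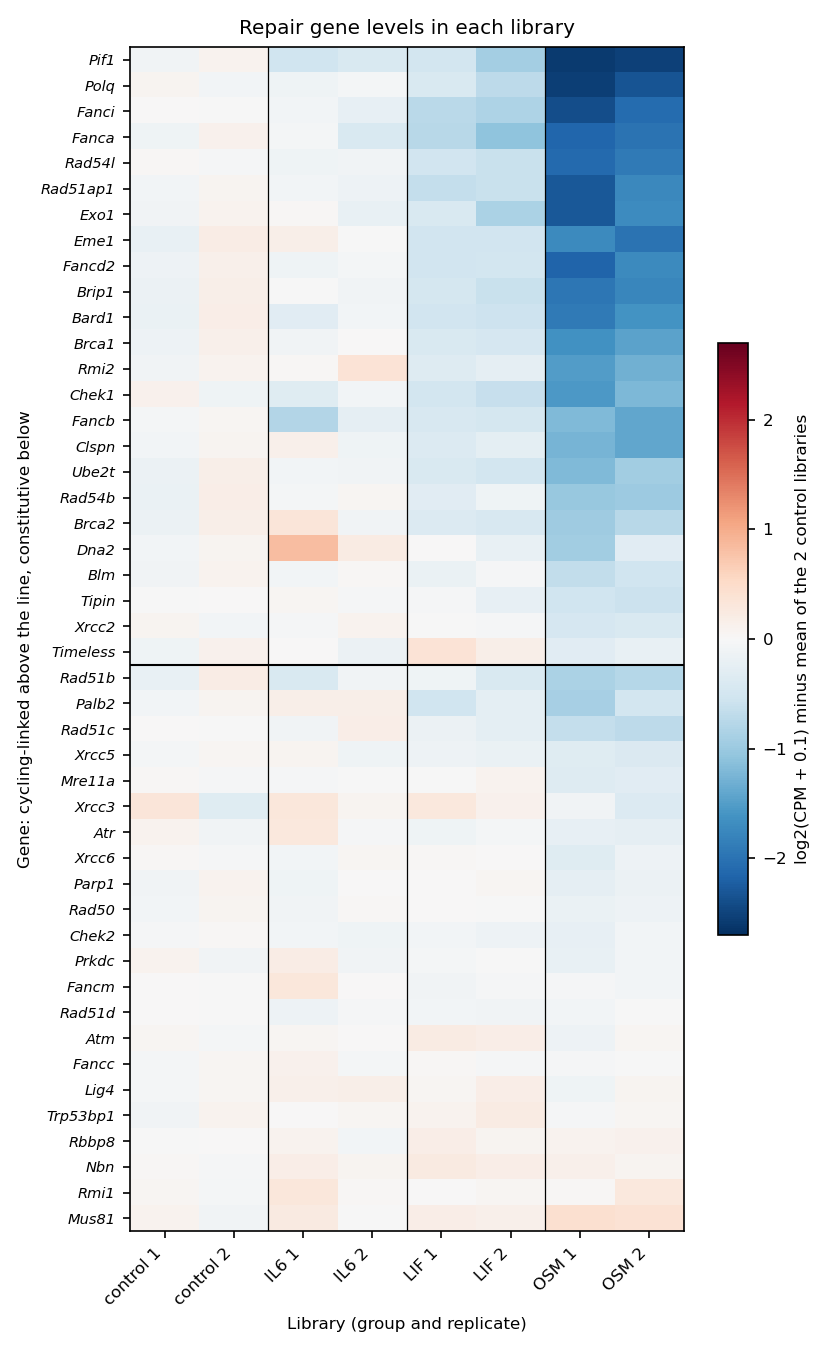
Level of each of the 46 genes (rows) in each of the 8 libraries (columns), as log2(CPM + 0.1) minus the mean of the 2 control libraries, blue lower and red higher. Rows are ordered by class and then by the change with OSM; all 24 cycling-linked genes above the line are lower in both OSM columns than in the control columns, and most of the 22 below the line are pale throughout.

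In the control libraries the 46 genes ranged widely in level. Divided by exon length, Parp1, whose product senses breaks and drives alternative end joining, was highest at 24.7 CPM per kilobase (kb). It was followed by Tipin at 17.5, Xrcc5 at 11.8 and Xrcc6 at 11.0 CPM per kb. The lowest were Dna2 at 0.398, Rmi2 at 0.475 and Palb2 at 0.596 CPM per kb. The constitutive class had a median control level of 3.64 CPM per kb and the cycling-linked class 1.73. With OSM the medians were 3.66 and 0.58 CPM per kb.

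The region around the start site was read for the members because the cycling-linked genes moved together. Windows of 300 bases (250 before and 50 after each start) came from RefSeq (mouse GRCm38.p6) for 34 of the 46 genes, 17 in each class. An E2F word (TTTCCCGC, TTTCGCGC, TTTGCCGC or TTTGGCGC on either strand), the site read by the E2F factors that switch genes on in S phase, was present in 3 of 17 cycling-linked and 4 of 17 constitutive genes. It was present in 4.52% of the 11128 tested genes that have a window and in 2.60% of all 27025 genes with one. The cell cycle homology region (CHR, searched as TTTGAA or TTCGAA on either strand), bound by the MuvB complexes, was present in 3 of 17 cycling-linked and 2 of 17 constitutive genes, against 16.4% of tested genes. A CCAAT box, the site of NF-Y (CCAAT on either strand), was in 9 of 17 and 11 of 17, against 43.0%, and a STAT3 word (TTCCNGGAA) was in no member, against 1.53%. Of the 4 words, CHR alone was in more cycling-linked than constitutive genes, by 1 gene. Rad54l (cycling-linked) and Rad51b, Rad51c, Rmi1 and Lig4 (constitutive) had 2 windows, and a word in either was counted. The E2F word of Rmi1 and the CHR word of Rad51b lay only in window 2. The constitutive class thus had more sequence searched, and its E2F and CHR counts depend on this. No match of 1 word overlapped a match of another in the members' windows, and a match is a description of letters and not a binding site.

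The windows printed are those of 4 cycling-linked genes that fell with OSM and hold an E2F or CHR word (Polq, Bard1, Brca2 and Clspn) and of 2 constitutive genes that hold an E2F word and were not called (Chek2 and Xrcc6). They set the word beside both outcomes. Of the genes not shown, Eme1 and Rad51b (which fell) and Atr (not called) hold a CHR word, and Rad51c (which fell) and Rmi1 (not called) an E2F word. Capitals mark the E2F and CHR words, and each window is written 5′ to 3′ on the gene's own strand. On GRCm38.p6 they lie at chr16:37011536-37011835 (+ strand) for Polq, chr1:71102923-71103222 (- strand) for Bard1, chr5:150522371-150522670 (+ strand) for Brca2, chr4:126556730-126557029 (+ strand) for Clspn, chr5:110839733-110840032 (+ strand) for Chek2 and chr15:82016119-82016418 (+ strand) for Xrcc6. Each window spans the promoter and the first transcribed bases.
Polq: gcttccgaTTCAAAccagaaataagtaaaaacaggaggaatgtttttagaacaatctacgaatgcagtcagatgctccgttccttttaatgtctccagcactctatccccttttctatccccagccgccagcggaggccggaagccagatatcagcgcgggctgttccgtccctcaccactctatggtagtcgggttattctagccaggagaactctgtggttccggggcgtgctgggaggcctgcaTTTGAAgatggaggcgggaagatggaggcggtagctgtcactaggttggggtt
Bard1: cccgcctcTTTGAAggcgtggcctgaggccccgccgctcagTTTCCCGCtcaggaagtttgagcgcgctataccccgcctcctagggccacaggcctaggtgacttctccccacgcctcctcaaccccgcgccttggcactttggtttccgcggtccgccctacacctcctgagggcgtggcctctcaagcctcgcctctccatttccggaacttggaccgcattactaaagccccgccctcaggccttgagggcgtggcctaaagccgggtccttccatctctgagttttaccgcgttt
Brca2: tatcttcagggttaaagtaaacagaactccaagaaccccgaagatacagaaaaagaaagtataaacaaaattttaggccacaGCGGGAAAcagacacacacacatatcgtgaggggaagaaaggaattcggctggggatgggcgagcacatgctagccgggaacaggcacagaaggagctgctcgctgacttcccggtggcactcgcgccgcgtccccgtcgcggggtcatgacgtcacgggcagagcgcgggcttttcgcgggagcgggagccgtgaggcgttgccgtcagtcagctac
Clspn: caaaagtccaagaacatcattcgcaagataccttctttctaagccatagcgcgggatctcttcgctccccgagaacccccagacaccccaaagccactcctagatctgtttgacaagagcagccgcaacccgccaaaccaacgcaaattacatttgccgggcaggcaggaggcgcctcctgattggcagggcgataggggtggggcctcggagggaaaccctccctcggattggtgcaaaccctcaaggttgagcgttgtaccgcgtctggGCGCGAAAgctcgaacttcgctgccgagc
Chek2: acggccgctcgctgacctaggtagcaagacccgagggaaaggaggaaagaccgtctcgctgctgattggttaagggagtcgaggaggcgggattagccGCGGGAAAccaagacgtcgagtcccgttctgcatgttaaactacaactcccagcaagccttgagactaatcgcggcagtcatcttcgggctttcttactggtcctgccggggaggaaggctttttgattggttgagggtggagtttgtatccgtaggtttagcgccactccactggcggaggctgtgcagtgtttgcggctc
Xrcc6: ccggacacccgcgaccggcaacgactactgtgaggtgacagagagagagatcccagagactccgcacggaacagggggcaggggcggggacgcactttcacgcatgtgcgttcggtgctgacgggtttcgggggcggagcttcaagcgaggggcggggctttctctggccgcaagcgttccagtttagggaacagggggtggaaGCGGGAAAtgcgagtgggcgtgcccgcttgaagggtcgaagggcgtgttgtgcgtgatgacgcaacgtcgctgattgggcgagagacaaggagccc
In Polq 2 CHR words begin 242 and 3 bases before the start site, and in Bard1 a CHR word begins 242 and an E2F word 209 bases before it. The E2F word of Brca2 begins 168 bases before the start, that of Chek2 152 and that of Xrcc6 46 bases before it, and that of Clspn lies 22 bases into the transcript. An E2F word was thus found both in Bard1, Brca2 and Clspn, which fell with OSM, and in Chek2 and Xrcc6, which were not called, with log2 changes of -0.15 for Chek2 (adjusted p = 0.377) and log2 -0.22 for Xrcc6 (adjusted p = 0.0634).

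Among the 12 genes of strand exchange and its mediators, 10 fell with OSM and none rose (median log2 change -0.86), and 4 fell with LIF. Of all genes tested, 10.5% were called lower and 10.7% higher with OSM, and 3.52% lower with LIF. The group starts with BRCA1 and its partner BARD1, which form a ubiquitin ligase at breaks. Brca1 had 833 and 1040 reads in the control libraries, 898 and 937 with IL6, 708 and 685 with LIF, and 294 and 343 with OSM. Its log2 change was -1.56 (SE 0.11, adjusted p = 5.68e-07) with OSM and log2 -0.44 (SE 0.10, adjusted p = 0.0178) with LIF. Bard1 had 292 and 382 reads in the control libraries, 275 and 318 with IL6, 235 and 228 with LIF, and 86 and 108 with OSM. The log2 change of Bard1 was -1.80 (SE 0.17, adjusted p = 6.76e-06) with OSM and log2 -0.56 (SE 0.15, adjusted p = 0.0349) with LIF. The mediator gene Brca2 had 361 and 461 reads in the control libraries, 523 and 387 with IL6, 317 and 305 with LIF, and 207 and 245 with OSM. Both OSM libraries of all 3 genes lay under every other library, and for Brca2 the change was smaller, log2 -0.86 (SE 0.16, adjusted p = 0.00185) with OSM, while the LIF value of log2 -0.42 (SE 0.15, adjusted p = 0.132) was not called. Palb2, which bridges BRCA1 and BRCA2, was counted as constitutive and had 121 and 137 reads in the control libraries, 148 and 144 with IL6, 88 and 108 with LIF, and 67 and 91 with OSM. It fell with OSM at log2 -0.71 (SE 0.19, adjusted p = 0.0185), but its higher OSM library lay above its lower LIF library, and the call was lost without control replicate 2 or without OSM replicate 1. A fit without a library of a compared group keeps 1 library there, which is assumed to vary like the other groups, here and below.

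RAD54L and RAD51AP1 help to pair the broken strand with its template. Rad54l had 259 and 256 reads in the control libraries, 242 and 242 with IL6, 182 and 172 with LIF, and 57 and 67 with OSM. Rad51ap1 had 423 and 474 reads in the control libraries, 438 and 410 with IL6, 289 and 296 with LIF, and 89 and 134 with OSM. Both OSM libraries of each gene lay below the other 6, with log2 changes of -2.05 for Rad54l (SE 0.16, adjusted p = 7.98e-07) and log2 -2.01 for Rad51ap1 (SE 0.15, adjusted p = 7.63e-07). With LIF both were called as well, at log2 -0.56 for Rad54l (adjusted p = 0.0159) and log2 -0.63 for Rad51ap1 (adjusted p = 0.00823). The related translocase gene Rad54b had 276 and 362 reads in the control libraries, 313 and 330 with IL6, 257 and 295 with LIF, and 152 and 160 with OSM. It fell with OSM, log2 -1.03 (SE 0.15, adjusted p = 0.000272), and its LIF libraries overlapped control. Of the exon bases of Rad54b, 35.8% also belong to Fsbp on the same strand, which had 49 to 85 reads and was not called with OSM (log2 0.10, adjusted p = 0.849). Of Rad54l, 15.4% of the exon bases lie opposite Lrrc41, whose log2 change with OSM was -0.01 (adjusted p = 0.933).

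Rad51b, Rad51c, Rad51d, Xrcc2 and Xrcc3, whose products form complexes that assist strand exchange, did not move alike. Rad51b had 151 and 205 reads in the control libraries, 136 and 165 with IL6, 163 and 134 with LIF, and 95 and 103 with OSM. Rad51c had 287 and 288 reads in the control libraries, 278 and 326 with IL6, 261 and 243 with LIF, and 182 and 177 with OSM. Both fell with OSM although counted as constitutive, log2 -0.85 for Rad51b (SE 0.19, adjusted p = 0.00698) and log2 -0.68 for Rad51c (SE 0.13, adjusted p = 0.00247), and neither was called with LIF. The Rad51b call was lost when either OSM library or control replicate 2 was left out. Xrcc2, counted as cycling-linked, fell with OSM at log2 -0.45 (SE 0.13, adjusted p = 0.0231), and the call was lost in DESeq2 and without control replicate 1, OSM replicate 1 or OSM replicate 2. Rad51d, which sits in the same complex as Rad51b, Rad51c and Xrcc2, had 549 and 551 reads in the control libraries, 514 and 539 with IL6, 526 and 525 with LIF, and 518 and 554 with OSM, with no call and log2 -0.04 with OSM. Xrcc3 had a value of log2 -0.27 (SE 0.19, adjusted p = 0.377) with 831 and 545 reads in its control libraries, a wide spread.

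In end resection, 2 of 6 genes fell with OSM and none rose, against 10.5% and 10.7% of all genes tested. The long-range nuclease gene Exo1 had 224 and 262 reads in the control libraries, 254 and 211 with IL6, 183 and 135 with LIF, and 47 and 74 with OSM. It fell with OSM at log2 -2.01 (SE 0.22, adjusted p = 2.23e-05), and at log2 -0.63 (SE 0.18, adjusted p = 0.0519) with LIF it missed the threshold. Dna2, the other long-range nuclease, had 65 and 73 reads in the control libraries, 128 and 81 with IL6, 70 and 60 with LIF, and 34 and 56 with OSM, few reads and a wide spread, and had no call with OSM, at log2 -0.62 (SE 0.30, adjusted p = 0.17). Dna2 was called only against IL6, log2 -1.19 (SE 0.27, adjusted p = 0.00936), where 1 IL6 library held 128 reads. The MRN complex, which detects ends and starts the cut, is encoded by Mre11a, Rad50 and Nbn. Mre11a fell slightly with OSM, log2 -0.33 (SE 0.07, adjusted p = 0.00617), from 38.9 ± 1.03 CPM to 30.9 ± 0.657 CPM (mean ± SD, n = 2), and this call was lost without OSM replicate 1. Rad50 and Nbn were not called, at log2 -0.16 for Rad50 (adjusted p = 0.159) and log2 0.10 for Nbn (adjusted p = 0.471), nor was Rbbp8, the gene of the CtIP cofactor, at log2 0.10 (SE 0.09, adjusted p = 0.472).

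Among the 6 genes of helicases and joint resolution, 4 fell and 1 rose with OSM, against 10.5% and 10.7% of all genes tested. The largest fall of all 46 genes was that of Pif1, a helicase that unwinds G-quadruplexes and helps repair synthesis. Pif1 had 148 and 174 reads in the control libraries, 112 and 121 with IL6, 114 and 85 with LIF, and 24 and 26 with OSM. The log2 change was -2.68 (SE 0.24, adjusted p = 3.39e-06) with OSM and log2 -0.71 (SE 0.18, adjusted p = 0.0269) with LIF. The IL6 libraries of Pif1 were also both below control, at log2 -0.49 (SE 0.17, adjusted p = 0.936), which was not called. Eme1, the regulatory partner of the MUS81 nuclease, had 99 and 135 reads in the control libraries, 132 and 115 with IL6, 81 and 81 with LIF, and 33 and 27 with OSM, and fell, with a log2 change of -1.96 (SE 0.24, adjusted p = 7.24e-05). Mus81 itself had 380 and 336 reads in the control libraries, 435 and 357 with IL6, 410 and 397 with LIF, and 480 and 478 with OSM. It was the only member that rose with OSM, log2 0.42 (SE 0.11, adjusted p = 0.0194), so that the pair moved in opposite directions. Leaving out control replicate 2, OSM replicate 1 or OSM replicate 2 ended the Mus81 call. Of the 50-base stretches of the Mus81 transcript, 13.5% also occur in Efemp2 or Gm48985. Efemp2 is its neighbour on the opposite strand and had 1123 and 1187 reads in control and 2197 and 2247 with OSM (log2 0.94, adjusted p = 1.84e-06). The strand setting used in counting is not given in the sources used here, and the part of Efemp2 in the Mus81 value was not tested. Eme1 shares 10.7% of its exon bases with Lrrc59 and Mrpl27 on the opposite strand. Lrrc59 was called lower with OSM (log2 -0.28, adjusted p = 0.0131) and Mrpl27 was not called (log2 -0.18, adjusted p = 0.248), and their part in the Eme1 value was not tested.

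BLM, RMI1 and RMI2 are parts of the dissolvasome, which separates joined DNA molecules without crossing over. Blm fell with OSM at log2 -0.60 (SE 0.10, adjusted p = 0.000527), from 29.3 ± 2.65 CPM to 19.3 ± 1.1 CPM (mean ± SD, n = 2). Rmi2 had 58 and 68 reads in the control libraries, 66 and 83 with IL6, 49 and 53 with LIF, and 20 and 24 with OSM. It fell with OSM at log2 -1.52 (SE 0.28, adjusted p = 0.00178), while Rmi1 had a value of log2 0.16 (SE 0.12, adjusted p = 0.365) and its OSM libraries overlapped control. Rmi1 shares 37.7% of its 50-base stretches with the predicted gene Gm20775, which held at most 1 read in any library. Another 5.02% of its exon bases lie opposite Hnrnpk, which was called lower with OSM (log2 -0.17, adjusted p = 0.0381).

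In the Fanconi pathway 6 of 8 genes fell with OSM, 5 of these also with LIF, and none rose. The shares of all genes tested were 10.5% lower and 10.7% higher with OSM, and 3.52% and 4.18% with LIF. FANCD2 and FANCI form the clamp that is ubiquitinated at a crosslink. Fanci had 316 and 319 reads in the control libraries, 308 and 273 with IL6, 193 and 180 with LIF, and 58 and 74 with OSM. Fancd2 had 492 and 617 reads in the control libraries, 525 and 534 with IL6, 386 and 396 with LIF, and 120 and 166 with OSM. The log2 changes with OSM were -2.27 for Fanci (SE 0.16, adjusted p = 3.66e-07) and log2 -1.96 for Fancd2 (SE 0.15, adjusted p = 7.65e-07), and those with LIF log2 -0.78 for Fanci (adjusted p = 0.00236) and log2 -0.52 for Fancd2 (adjusted p = 0.0223). Ube2t encodes the enzyme that hands the ubiquitin over and had 504 and 641 reads in the control libraries, 555 and 539 with IL6, 430 and 409 with LIF, and 247 and 298 with OSM. Its fall was smaller, log2 -1.07 (SE 0.13, adjusted p = 4.2e-05) with OSM and log2 -0.46 (SE 0.12, adjusted p = 0.0295) with LIF. Of the core complex, Fanca had 206 and 249 reads in the control libraries, 223 and 171 with IL6, 134 and 107 with LIF, and 49 and 55 with OSM. Fanca showed the largest fall of any member with LIF, log2 -0.93 (SE 0.17, adjusted p = 0.00541), and fell with OSM at log2 -2.13 (SE 0.21, adjusted p = 7.62e-06). Fancb had 96 and 106 reads in the control libraries, 59 and 85 with IL6, 75 and 73 with LIF, and 42 and 37 with OSM, and fell with OSM, at log2 -1.35 (SE 0.24, adjusted p = 0.00116). Both IL6 libraries of Fancb were below control, at log2 -0.51 (SE 0.21, adjusted p = 0.936), and not called. The helicase gene Brip1, which acts with BRCA1, had 415 and 526 reads in the control libraries, 478 and 439 with IL6, 338 and 313 with LIF, and 118 and 137 with OSM, and fell with OSM at log2 -1.88 (SE 0.14, adjusted p = 8.61e-07) and log2 -0.55 (SE 0.12, adjusted p = 0.0148) with LIF. The 2 constitutive genes of the pathway were not called with OSM, at log2 -0.02 for Fancc (adjusted p = 0.934) and log2 -0.06 for Fancm (adjusted p = 0.804). Fanci lies opposite Polg over 15.95% of its exon bases and Fanca opposite Zfp276 over 10.5%, and neither neighbour was called with OSM (log2 0.06 and 0.25). Fancc lies opposite 2010111I01Rik and Gm16133 over 18.6% of its exon bases. The neighbour 2010111I01Rik had 3503 and 2475 reads in control and 3818 and 3196 with OSM (log2 0.23, adjusted p = 0.701). Its part in the Fancc value was not tested.

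Of the 8 damage checkpoint genes, 3 fell with OSM and 1 with LIF, and none rose. Among all genes tested, 10.5% were lower and 10.7% higher with OSM, and 3.52% and 4.18% with LIF. Chek1, the effector kinase of stalled replication forks, had 265 and 229 reads in the control libraries, 200 and 237 with IL6, 175 and 160 with LIF, and 81 and 106 with OSM. It fell with OSM at log2 -1.40 (SE 0.17, adjusted p = 7.15e-05) and log2 -0.58 (SE 0.16, adjusted p = 0.0395) with LIF. Chek2, the effector kinase of double-strand breaks, had 337 and 356 reads in the control libraries, 340 and 323 with IL6, 333 and 320 with LIF, and 294 and 333 with OSM, and was not called with either. The upstream kinases Atm and Atr were not called with OSM, at log2 -0.04 for Atm (adjusted p = 0.784) and log2 -0.23 for Atr (adjusted p = 0.117). Clspn, the adaptor through which ATR reaches CHK1, had 446 and 507 reads in the control libraries, 537 and 441 with IL6, 373 and 402 with LIF, and 196 and 180 with OSM, and fell with OSM at log2 -1.34 (SE 0.13, adjusted p = 6.93e-06). Timeless and Tipin encode a fork protection complex. Tipin fell with OSM, log2 -0.55 (SE 0.09, adjusted p = 0.000483), whereas Timeless gave log2 -0.26 (SE 0.14, adjusted p = 0.208) and was called lower only against LIF, log2 -0.52 (SE 0.13, adjusted p = 0.0276). This call of Timeless was lost when either LIF library or either OSM library was left out. Timeless was the 1 cycling-linked gene with both LIF libraries above both control libraries. Trp53bp1, whose product steers breaks towards end joining, had a log2 value of 0.00 with OSM (adjusted p = 0.998). Over 15.0% of its exon bases Trp53bp1 lies opposite Tubgcp4, which was not called with OSM (log2 -0.11, adjusted p = 0.434).

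In end joining 2 of 6 genes fell with OSM, 1 of them also with LIF, and none rose. For all genes tested the shares were 10.5% lower and 10.7% higher with OSM, and 3.52% and 4.18% with LIF. Polq encodes DNA polymerase theta, which joins ends through short homologies and is active in dividing cells. Polq had 327 and 301 reads in the control libraries, 297 and 303 with IL6, 239 and 194 with LIF, and 51 and 61 with OSM. This was a log2 change of -2.49 (SE 0.17, adjusted p = 3.9e-07) with OSM, the second largest of all members, and log2 -0.55 (SE 0.13, adjusted p = 0.0226) with LIF. The classical route is carried by the Ku heterodimer (Xrcc5 and Xrcc6), the DNA-dependent kinase (Prkdc) and DNA ligase 4 (Lig4). Xrcc5 had 842 and 931 reads in the control libraries, 953 and 817 with IL6, 807 and 796 with LIF, and 703 and 680 with OSM. It fell slightly with OSM, log2 -0.36 (SE 0.09, adjusted p = 0.011), a call lost without control replicate 2, OSM replicate 1 or OSM replicate 2. Xrcc6, Prkdc and Lig4 were not called, at log2 -0.22 for Xrcc6 (adjusted p = 0.0634), log2 -0.14 for Prkdc (adjusted p = 0.375) and log2 -0.01 for Lig4 (adjusted p = 0.942). Over 7.69% of its exon bases Xrcc6 lies opposite Desi1, which was called higher with OSM (log2 0.31, adjusted p = 0.00777). Parp1 was not called either, log2 -0.20 (SE 0.07, adjusted p = 0.0646), with 131 ± 11.5 CPM in control and 114 ± 3.99 CPM with OSM (mean ± SD, n = 2).

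**Figure D3:**
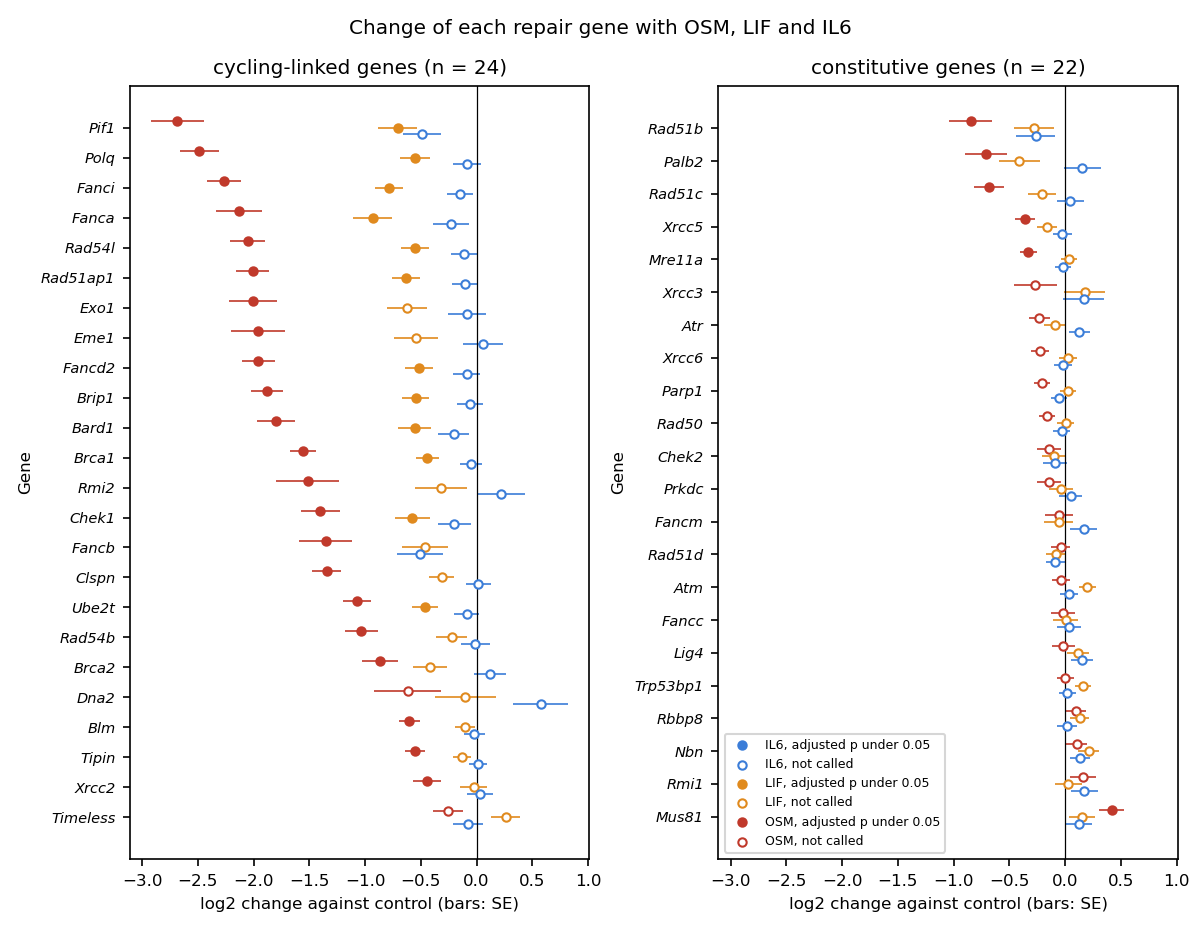
Log2 change against control (x axis, bars are the SE of the fit) of the 24 cycling-linked and 22 constitutive genes (y axis) with OSM, LIF and IL6; filled points passed an adjusted p of 0.05. With OSM 22 of 24 cycling-linked and 6 of 22 constitutive genes are filled, with LIF 12 and 0, and with IL6 none.

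Since a part of the pathway fell and a part did not, the ratio between genes whose products work together was computed within each library, as a description. The log2 ratio of Mus81 to Eme1 was 1.94 and 1.32 in the control libraries, 2.34 and 2.29 with LIF, and 3.86 and 4.15 with OSM. That of Parp1 to Polq was 3.45 and 3.78 in control, 4.03 and 4.38 with LIF, and 5.99 and 5.83 with OSM. That of Chek2 to Chek1 was 0.35 and 0.64 in control, 0.93 and 1.0 with LIF, and 1.86 and 1.65 with OSM. In all 3 pairs the LIF libraries lay above both control libraries and the OSM libraries higher still. The ratio of Rmi1 to Rmi2 was 3.02 and 2.69 in control and 4.53 and 4.54 with OSM, and that of Rad51d to Rad51c was 0.94 in both control libraries and 1.51 and 1.65 with OSM. Bard1 to Brca1, which both fell, was -1.51 and -1.45 in control and -1.77 and -1.67 with OSM. Fancd2 to Fanci, which both fell as well, was 0.64 and 0.95 in control and 1.05 and 1.17 with OSM. The ratio of Rad50 to Mre11a, of which Mre11a alone fell, was -0.085 and 0.099 in control and 0.18 and 0.17 with OSM. Palb2 to Brca2 and Xrcc6 to Xrcc5 overlapped between the groups.

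**Figure D4:**
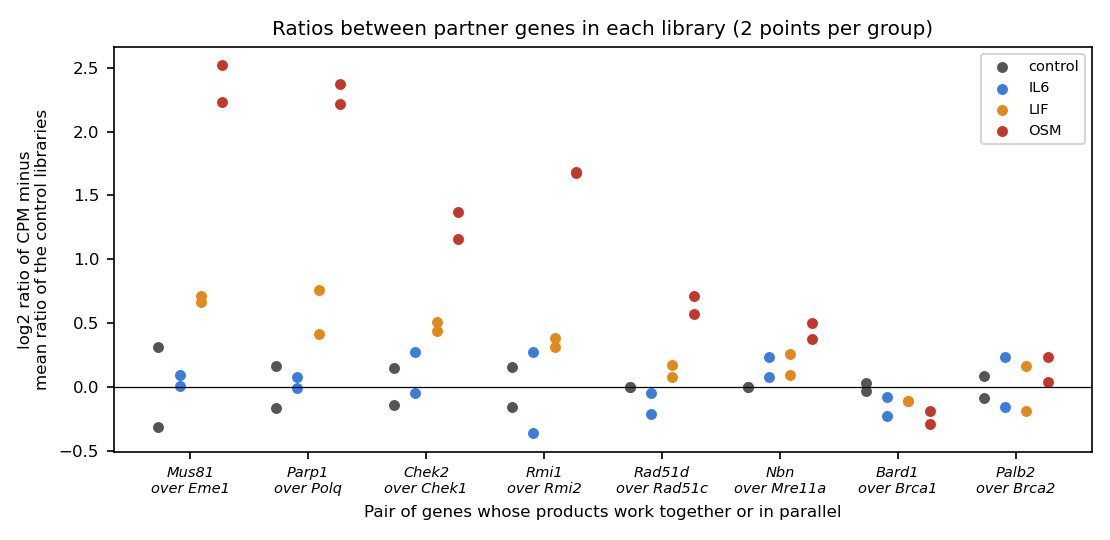
Log2 ratio of CPM between 8 pairs of genes (x axis) in each library, minus the mean ratio of the 2 control libraries (y axis); colours are the 4 groups, with 2 points for each. With OSM the mean ratio was 2.38 above control for Mus81 over Eme1 and 2.29 for Parp1 over Polq, and Palb2 over Brca2 overlapped control.

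LIF and OSM were then compared directly. OSM was lower than LIF in 23 members, 21 of them cycling-linked (the others Rad51c and Mre11a), and higher in none, where 3.95% of all tested genes were called lower and 4.06% higher. The Rad51c call was lost in DESeq2, with DESeq2 size factors and with no filter on low counts. That of Fancb was lost in DESeq2, with no filter and with a mean of at least 50 counts. The Mre11a call was lost without LIF replicate 2, OSM replicate 1 or OSM replicate 2. All 12 genes that fell with LIF were also lower with OSM than with LIF. The largest of these differences were log2 -1.97 for Pif1 (adjusted p = 0.000392), log2 -1.94 for Polq (adjusted p = 2.99e-05) and log2 -1.50 for Rad54l (adjusted p = 8.72e-05). Over the 24 cycling-linked genes the median log2 change was -0.49 for LIF against control and -1.16 for OSM against LIF, and over the constitutive genes 0.01 and -0.15. Fewer members were called lower with LIF than control when any control, LIF or OSM library was left out, and more without either IL6 library. The number called over all tested genes moved the same way. The cycling-linked median log2 change with LIF was -0.50 without LIF replicate 1, -0.42 without LIF replicate 2 and -0.34 without control replicate 2. It was -0.55 without control replicate 1 and -0.49 without either OSM library. DESeq2 called 8 members lower with LIF, losing Pif1, Bard1, Rad54l and Chek1. Of all genes it called 1116, where the reported fit called 1201. For OSM against LIF, leaving out any OSM or LIF library also lowered the number called, among the members and among all tested genes. The cycling-linked median then ran from -1.24 to -1.08. Counted by position alone, 19 of the 24 cycling-linked genes had both LIF libraries below both control libraries, as did 26.8% of all tested genes, and 24 of 24 had both OSM libraries below control, against 31%.

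With IL6 no member was called, and 3 had an unadjusted p under 0.05 (Pif1, Fancb and Dna2), as did 808 of all 15603 genes; the lowest adjusted p of any gene was 0.106, and DESeq2 called no member either. The median log2 change was -0.08 over the cycling-linked and 0.04 over the constitutive genes, and 5 cycling-linked genes had both IL6 libraries below both control libraries, where 14.1% of all tested genes did. Against IL6, OSM was lower in 28 members (23 cycling-linked and 5 constitutive) and higher in none, with 7.48% of all tested genes called lower and 8.09% higher. LIF was lower than IL6 in 2 members, Fanci at log2 -0.63 (SE 0.13, adjusted p = 0.0214) and Rad51ap1 at log2 -0.53 (SE 0.13, adjusted p = 0.0477), where 1.03% of tested genes were called lower and 1.73% higher. Neither call was kept without IL6 replicate 1, LIF replicate 1 or LIF replicate 2, where fewer of all tested genes were called too. More members and more of all tested genes were called without control replicate 1, control replicate 2 or IL6 replicate 2. Over the 15 alternatives the log2 change ran from -0.70 to -0.55 for Fanci and from -0.56 to -0.49 for Rad51ap1. OSM, LIF and IL6 are set against the same 2 control libraries, so their values are not independent of each other.

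A further 58 genes of the same pathways that are not among the 46 were read for comparison. With OSM 15 of them (25.9%) fell and 3 rose, against 10.5% and 10.7% of all genes tested. With LIF 6 (10.3%) fell and none rose, against 3.52% and 4.18%. Among the largest falls with OSM were those of Gen1, a resolvase of joined molecules, Zgrf1, a helicase, and Lig1, the replicative ligase. Gen1 had 275 and 264 reads in the control libraries, 354 and 212 with IL6, 239 and 221 with LIF, and 92 and 103 with OSM. These genes fell with OSM, at log2 -1.47 for Gen1 (adjusted p = 0.000498), log2 -1.42 for Zgrf1 (adjusted p = 4.55e-05) and log2 -1.36 for Lig1 (adjusted p = 3.71e-07). The end-joining polymerase gene Polm had 368 and 378 reads in the control libraries, 452 and 417 with IL6, 391 and 428 with LIF, and 659 and 545 with OSM. Polm, the helicase gene Wrn and the recombination cofactor gene Sfr1 were the 3 that rose, at log2 0.69 for Polm (adjusted p = 0.000722), log2 0.45 for Wrn (adjusted p = 0.000959) and log2 0.19 for Sfr1 (adjusted p = 0.0464). The median of the 58 was -0.08 with OSM.

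Regulators of cycle genes were read as well. Of 20 listed genes of the E2F family, their DP partners, pocket proteins and the DREAM and MuvB complexes, 19 were matched by symbol. Of these 8 (42.1%) fell with OSM and none rose, against 10.5% and 10.7% of all genes tested. With LIF 2 (10.5%) fell and none rose, against 3.52% and 4.18%. Foxm1, the activator of mitotic genes, had 954 and 1087 reads in the control libraries, 936 and 967 with IL6, 785 and 705 with LIF, and 261 and 305 with OSM, a log2 change of -1.85 (SE 0.10, adjusted p = 5.94e-08). Mybl2 and E2f7 followed at log2 -1.58 for Mybl2 (adjusted p = 5.23e-05) and log2 -1.06 for E2f7 (adjusted p = 5.44e-05). Of 21 targets of p53, the factor that damage signalling activates, 4 (19%) fell and 1 rose with OSM, against 10.5% and 10.7% of all genes. The largest falls were log2 -1.41 for Perp (adjusted p = 0.00319), log2 -0.32 for Gadd45a (adjusted p = 0.00251) and log2 -0.28 for Aen (adjusted p = 0.00524), and Btg2 rose, log2 0.54 (SE 0.07, adjusted p = 6.41e-05). With LIF 1 of the p53 targets fell and 2 rose, against 3.52% and 4.18% of all genes tested. The p53 target list thus had a median log2 change of -0.08 with OSM and 0.02 with LIF.

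The markers of the cells in the culture are given beside these results. Of the 30 proliferation genes 28 fell with OSM (all but Ccne1 and Ccne2) and 22 with LIF, and none rose. Over all genes tested, 10.5% were called lower and 10.7% higher with OSM, and 3.52% and 4.18% with LIF. Mki67, the gene of the Ki-67 protein of dividing cells, had 7583 and 8953 reads in the control libraries, 7367 and 7483 with IL6, 5787 and 5489 with LIF, and 1829 and 2252 with OSM. Top2a, the topoisomerase that untangles replicated DNA, had 8514 and 10525 reads in the control libraries, 8218 and 9061 with IL6, 7059 and 6557 with LIF, and 2408 and 3149 with OSM. Their OSM libraries lay below the other 6, with log2 changes of -2.02 and -1.78. The 12 myotube markers summed to 28924 and 30539 CPM in control, 26383 and 28031 with LIF, and 25538 and 25599 with OSM, with 3 lower with LIF, 4 lower with OSM and none higher. The 6 myoblast markers summed to 959 and 988 CPM in control, 1139 and 1183 with LIF, and 1126 and 1154 with OSM. Of these Itga7 was higher with both cytokines, Pax7 and Myf5 with OSM, and none was lower. The 10 fibroblast markers summed to 1702 and 1765 CPM in control, 2014 and 2082 with LIF, and 2079 and 2190.2 with OSM. Single markers did not all follow the sum. The median log2 change of the 7 that could be tested was -0.12 with LIF, with 4 below 0. It was 0.17 with OSM, with 3 below 0. Postn was lower and Col3a1 higher with both, and with OSM Pdgfrb was lower and Pdgfra higher. Lum and Tcf21 were at 0 in all 8 libraries and Thy1 had at most 1 read. The 8 macrophage markers summed to 9.13 and 10.3 CPM in control, 15.64 and 15.98 with LIF, and 15.6 and 17.5 with OSM. Of the 4 that could be tested, Cd68 and Mrc1 were called higher with OSM and Mrc1 with LIF, with a median log2 change of 0.81 with OSM, while Adgre1 was at 0 or 1 read and Ptprc at 0 to 3 in every library. The 7 endothelial markers summed to 5.04 and 5.54 CPM in control, 5.16 and 5.99 with LIF, and 6.29 and 6.44 with OSM, with no call among the 4 tested and Emcn at 0 in all libraries. In these sums the myoblast, fibroblast and macrophage lists lay above control with LIF and with OSM. With IL6 the sums were 25817 and 28090 CPM for the myotube and 985.6 and 985.7 CPM for the myoblast list. The fibroblast list summed to 1533 and 1747 CPM with IL6. The macrophage list summed to 16.3 and 11.2 CPM with IL6 and the endothelial list to 6.02 and 4.99 CPM. The macrophage sum thus lay above control and the myotube sum below control with IL6 too. The part of a change in cell make-up in the repair gene values was not tested.

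The libraries were of like depth, with 29482077 to 30025471 reads assigned to genes. The chi-square between the 2 libraries of a group, per gene, was lowest in LIF (3.04), then 5.31 in OSM, 10.1 in control and 12.3 in IL6, so the replicates differed by more than counting noise. The spread between control libraries touches the cycling-linked class: relative to the control mean, the median log2 level of the 24 genes was -0.10 in control replicate 1 and 0.10 in control replicate 2, against -0.41 and -0.49 in the LIF and -1.60 and -1.43 in the OSM libraries. Members with few reads, such as Rmi2 with 20 and 24 and Pif1 with 24 and 26 in the OSM libraries, carry a large counting error, and a small change in them was not detectable at this depth.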

How the data were processed

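The values are raw counts of reads per gene, deposited by the authors as 1 table for each of the 8 libraries, not normalized and not pooled. Per the submitters' processing notes, the tools named include Trim Galore 0.6.5, STAR 2.7.3a, HTSeq 0.11.1 and DESeq2 1.34.0 and the genome GRCm39. The annotation release and the strand setting of the counting are not given in the sources used here, so reads of overlapping genes may be shared or lost. Groups come from the sample titles. Summary lines that name no gene (11.7% to 12.7% of each table) were left out. Symbols came from GENCODE M21 (GRCm38), which named 52093 of 53647 identifiers, so no gene coordinates are given for the counting build, and exon overlaps and exon lengths are those of M21. Promoter windows are RefSeq's.

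In R 4.3.3, edgeR 4.0.16 was run with TMM scaling, filterByExpr at its minimum count of 10 (15603 genes left), and a robust quasi-likelihood fit to all 8 libraries (4 residual degrees of freedom). There were 6 contrasts, each adjusted by Benjamini and Hochberg, with calls at an adjusted p under 0.05. Levels are TMM-scaled CPM. The script was tested on simulated data. Alternatives were other scalings, filters, DESeq2 1.42.0, single contrasts, a replicate block and leaving out each library. The members, classes and lists were chosen with earlier results of these data known. Named with values in every library are the members called with OSM (the 20 of largest change), the one called against its class, any member called with LIF or IL6 and the 5 constitutive genes of largest change. From the other lists the largest called changes with OSM are named (4 each way for the pathway list, 3 for the others, with 1 gene not reported here), and further members were chosen after their values were seen. The SE of a log2 change comes from the quasi-likelihood fit and includes the spread between libraries. Each SD is that of the 2 libraries of a group. PCR copies of a molecule cannot be told apart here.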

Additional observations from a re-analysis of the deposited data

How the results depend on the processing

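No called member changed direction under any of the 15 alternatives. Each was fitted to all genes that passed its filter, and calls were compared gene by gene for the members only. Leaving out a library of a compared group keeps 1 library there, which is assumed to vary like the other groups, and fewer samples enter the fit. Of the 22 cycling-linked falls with OSM, 21 were called under all of them (all but Xrcc2), and of the 6 constitutive calls 1 was (Rad51c). None of the 12 falls with LIF was called under all. Asking for a fold of at least 2 left 18 members for OSM against control, 0 for LIF against control, 14 for OSM against LIF, 17 for OSM against IL6 and 0 for LIF against IL6. Leaving out 1 library at a time gave 22 to 31 members for OSM against control, 0 to 14 for LIF against control, 11 to 27 for OSM against LIF, 21 to 30 for OSM against IL6 and 0 to 7 for LIF against IL6. The number called over all genes tested changed in these fits too, so the ranges are not particular to the members. For LIF against IL6, 1 member was called with a mean of at least 50 counts and 1 in DESeq2, instead of 2. Fitted with the replicate number as a block, 31, 13, 0, 27, 31 and 8 members were called for OSM, LIF and IL6 against control, OSM against LIF, OSM against IL6 and LIF against IL6. In the same order the block called 3965, 1658, 9, 1757, 3003 and 832 of all genes tested. The reported fit called 3305, 1201, 0, 1251, 2429 and 431. Replicate 1 deviations of 2 groups correlated at 0.006 to 0.187, positive in each of the 6 pairs of groups and over 0.1 in 2 of them, which leaves unsettled whether the numbers pair the libraries, and the reported fit has no block. The median log2 change with OSM over the constitutive genes ran from -0.15 to -0.073 without single libraries and was -0.092 without the genes of arguable class. Over the cycling-linked genes it ran from -1.65 to -1.46, and was -1.80 without them. With LIF the cycling-linked median ran from -0.55 to -0.34. With IL6 the medians ran from -0.16 to 0.031 (cycling-linked) and from 0.0074 to 0.085 (constitutive). Low read numbers limit Rmi2, Pif1, Eme1, Fancb and Dna2 most.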

Other observations

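Further genes of the pathway list, chosen here after their values were seen, moved with the recombination genes. Mdc1, the scaffold that gathers repair factors on marked chromatin, had 1907 and 2257 reads in the control libraries, 1870 and 1960 with IL6, 1565 and 1588 with LIF, and 922 and 1093 with OSM. The gene fell with OSM at log2 -1.05 (SE 0.09, adjusted p = 2.39e-06) and with LIF at log2 -0.42 (SE 0.09, adjusted p = 0.00988). H2afx, the gene of the histone variant that carries the mark, fell with OSM at log2 -1.02 (SE 0.11, adjusted p = 1.43e-05). Topbp1, the activator of ATR, had 1685 and 1815 reads in the control libraries, 1804 and 1657 with IL6, 1376 and 1363 with LIF, and 854 and 961 with OSM. Topbp1 fell with OSM at log2 -0.95 (SE 0.08, adjusted p = 1.19e-06) and with LIF at log2 -0.37 (SE 0.07, adjusted p = 0.00715). The genes of single-strand binding protein A, Rpa1 and Rpa2, fell with OSM at log2 -0.72 for Rpa1 (adjusted p = 9.24e-06) and log2 -0.62 for Rpa2 (adjusted p = 0.000178). Usp1, which removes the ubiquitin from FANCD2, fell with OSM at log2 -0.96 (SE 0.08, adjusted p = 1.89e-06) and with LIF at log2 -0.29 (SE 0.08, adjusted p = 0.0361). These 6 genes were chosen with their values seen, so their shared direction was fixed by the choice. In edgeR's test 15 of the 58 listed genes fell with OSM, 3 rose and 40 were not called.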
